A study of Homo sapiens with 9 samples.

Results

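The genes described here encode the proteins of the cytosolic ribosome. Members were chosen by symbol alone: every gene identifier named RPL or RPS with a number, with the suffix A, X, L or AL allowed, together with RPLP0, RPLP1, RPLP2 and RPSA, and without the pseudogenes. This gave 82 of 63677 gene identifiers, 50 for the large subunit and 32 for the small subunit. RNA sequencing counts were available for 3 human colorectal cancer cell lines with 3 libraries each. SW480 was the parental line, established from a colorectal adenocarcinoma and carrying no vector. SW480-B was 1 clone derived from it that carried the plasmid pcDNA3-BASP1, which drives BASP1 from a viral promoter under geneticin selection. SW480-gRNA-B-all carried the CRISPR activation components MS2-P65-HSF1 (selected with hygromycin) and dCas9-VP64-GFP, in cells grown from a single clone, and a pool of guide RNAs directed to the endogenous BASP1 promoter (selected with puromycin). No line with an empty vector or with the activator alone was compared here, so the effects of BASP1, of vector and drug selection, and of cloning cannot be told apart. The study describes the replicates as total RNA isolated in triplicate from each line. P-values therefore measure the spread between these samples, which may be technical.

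Ribosomal proteins are needed in equal numbers for each ribosome, the acidic stalk proteins excepted, and assemble with ribosomal RNA in the nucleolus. Their mRNAs are short, abundant and long lived, and most begin with a 5′ terminal oligopyrimidine (TOP) tract, a C at the cap followed by an unbroken run of pyrimidines, through which growth factor and nutrient signals control their translation. BASP1 is a membrane and nuclear protein that inhibits transformation by MYC, and genes for ribosomal proteins and for ribosome assembly are classical targets of MYC.

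The transcript starts of members that diverged between libraries are shown, since a TOP tract begins there. Each line gives 10 bases before and 20 bases from the RefSeq start (GRCh38.p14, gene strand, 5′ to 3′), with the run of C and T that begins at the start in capitals. The runs of RPL9 and RPS28, which start at A, and of RPS7, with CTC, do not reach a C followed by at least 4 pyrimidines, the rule for a TOP tract used here. RPS3A, RPL9, RPS7 and RPL31 were low in the replicate 2 libraries of SW480 and SW480-B. RPLP2, RPLP1, RPL28 and RPS28 were not. RPL13A and RPS19, on the long arm of chromosome 19 (19q), differed within SW480-gRNA-B-all. RPS19 has another annotated start, which begins at A and is not printed.
RPS3A, chr4:151099618-151099647, plus strand: cccacttccgCCCTTTTggctctctgacca
RPL9, chr4:39458903-39458932, minus strand: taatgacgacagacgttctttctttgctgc
RPS7, chr2:3575250-3575279, plus strand: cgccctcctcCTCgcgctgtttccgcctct
RPL31, chr2:101002279-101002308, plus strand: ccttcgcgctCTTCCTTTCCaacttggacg
RPLP2, chr11:809957-809986, plus strand: tcggcgccttCCTTTTCCTCCCTgtcgcca
RPLP1, chr15:69452808-69452837, plus strand: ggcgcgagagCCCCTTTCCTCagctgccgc
RPL28, chr19:55385922-55385951, plus strand: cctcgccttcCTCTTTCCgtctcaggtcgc
RPS28, chr19:8321486-8321515, plus strand: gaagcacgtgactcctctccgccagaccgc
RPL13A, chr19:49487598-49487627, plus strand: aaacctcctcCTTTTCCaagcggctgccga
RPS19, chr19:41860245-41860274, plus strand: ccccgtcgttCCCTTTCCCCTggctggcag

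RefSeq starts were found for 65 of the 82 members. Of these, 46 (70.8%) had a start at C followed by at least 4 pyrimidines, against 5.14% of the 27305 genes with a start in the same table. The E-box CACGTG, the palindromic site that MYC binds with its partner MAX, was present in the 300 bases around a start, 250 before and 50 after, in 4 of the 65 members (6.15%) and in 8.77% of all genes. TATAAA on either strand was present in 6 members (9.23%) and in 14% of all genes. A gene with several annotated starts was counted if any of them matched, for members and all genes alike. These matches describe letters in these windows only.

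Sequencing depth was even, with 25238831 to 29355669 counts on genes per library. Of 10 colon epithelial markers, 7 exceeded a mean of 1 CPM (counts scaled to a library of 1000000) in each line, whereas the summed level of 5 leukocyte markers reached at most 5.90 CPM, of 5 fibroblast markers 10.9 CPM and of 4 endothelial markers 4.40 CPM. BASP1 was measured at 11.9, 8.03 and 0.691 CPM in SW480, at 268, 268 and 250 CPM in SW480-B, and at 167, 303 and 300.1 CPM in SW480-gRNA-B-all, higher in every library of both BASP1 lines than in any of SW480. All CPM values are scaled by trimmed mean of M-values (TMM) factors. Replicates 2 and 3 of SW480-gRNA-B-all were far closer to each other than any other pair: over members, the chi-square statistic of their counts averaged 4.22 per gene, against 273 to 9267 in the other within-line pairs. Their difference still exceeded sampling noise, and they were kept as separate libraries.

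Members took up a variable part of the counts. In SW480 they made up 9.95% of counts on genes in replicate 1, 4.65% in replicate 2 and 5.73% in replicate 3. The parental line thus varied 2.14-fold among its own replicates, more than the means of the 3 lines differed from each other. In SW480-B the shares were 5.55, 3.48 and 5.79%. In SW480-gRNA-B-all they were 5.38, 4.99 and 4.95%, the narrowest range of the 3 lines. As mean ± SD (n = 3) the share was 6.78% ± 2.80 in SW480, 4.94% ± 1.27 in SW480-B and 5.11% ± 0.234 in SW480-gRNA-B-all, so that the ranges of the lines overlapped. The widest of the 95% Wilson confidence intervals of these single shares spanned 0.0216 percentage points. Such intervals cover counting error only, and the spread between libraries of a line was much larger. The small subunit accounted for 41.0, 35.2 and 38.8% of member counts in SW480, 39.4, 32.9 and 38.2% in SW480-B, and 38.1, 37.5 and 37.5% in SW480-gRNA-B-all. The lowest small subunit portions were found in replicate 2 of SW480 and of SW480-B.

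**Figure D1:**
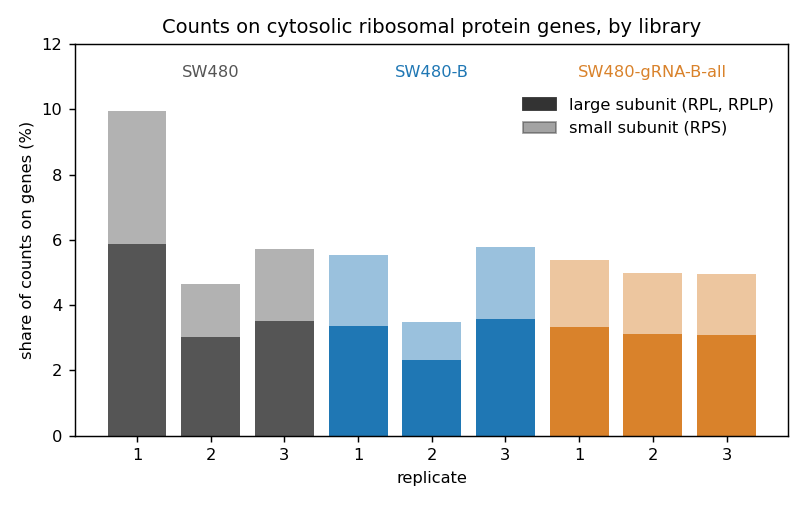
Share of counts on genes (%) taken by the 82 ribosomal protein genes in each of the 9 libraries, stacked as large subunit (dark) and small subunit (light) genes, with bars grouped by cell line. Replicate 1 of SW480 stands highest at 9.95% and replicate 2 of SW480-B lowest at 3.48%, while the 3 SW480-gRNA-B-all libraries lie between 4.95 and 5.38%.

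Levels of members were compared per kilobase of coding sequence, as the mean CPM of the 9 libraries divided by coding length. RPL41, which encodes the smallest ribosomal protein, ranked first with 4573 CPM per kb. Its coding length is 75 bases, and its mean level was 343 CPM, against 795 CPM for RPL37A and 1770 CPM for RPL13A. Untranslated exon parts are not in the divisor, which raises the values of members with short coding sequences. RPL41 was followed by RPLP1 with 3077, RPL13A with 2906 and RPL37A with 2882 CPM per kb. The median of the 79 members with enough counts was 1393 CPM per kb. At the low end stood RPL3L (0.442), RPL17 (8.59), RPS10 (10.9) and RPL36A (15.9 CPM per kb). RPL17, RPS10 and RPL36A share exon bases on the same strand with the read-through genes RPL17-C18orf32, RPS10-NUDT3 and RPL36A-HNRNPH2, which were at 0 CPM in all 9 libraries. Reads in shared exons cannot be assigned to 1 gene, and 3.09 to 3.44% of all reads were set aside as ambiguous, hence the values of these 3 members are uncertain. Other members share exon bases with another identifier on the same strand too, so the same limit applies to them. Among them are RPL36 (400 bases), RPL26 (360), RPS15A (218), RPS29 (403) and RPS2 (351).

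Several ribosomal proteins have paralogs whose expression is restricted to certain tissues. RPL10L, a testis-expressed retrogene copy of RPL10, and RPL39L, the testis-expressed paralog of RPL39, had no counts in any library, which allows at most 0.102 to 0.119 CPM in each (3 counts). Their ubiquitous partners were abundant, RPL10 with 1079 to 1865 CPM and RPL39 with 305 to 467 CPM as means of the lines. RPL3L, the striated muscle paralog of RPL3, did not exceed 2.32 CPM in any library, whereas RPL3 had a mean of 1132 to 1823 CPM in the lines. RPS27L, a target of p53, was lower than RPS27 in every library, at 12.2 to 40.9 CPM against 117 to 782 CPM. RPL36AL, a retrogene copy of RPL36A, was among the steadiest members, with 103 to 153 CPM over the 9 libraries.

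Apart from RPL3L, 14 of the 78 members with enough counts varied less than 2-fold between their highest and lowest library, 39 varied between 2- and 4-fold and 25 varied at least 4-fold. The median of this ratio was 3.22. Member levels ranked alike in the replicates of SW480-gRNA-B-all (Spearman's rho 0.952 to 0.998 across 79 members, the points of each pair of libraries sharing the depth of those libraries), and least alike between replicate 1 of SW480 and replicate 2 of SW480-B (0.688). Replicate 1 of SW480 was the highest library for 66 of the 79 members. Either replicate 2 of SW480-B or replicate 2 of SW480 was the lowest for 58 members.

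**Figure D2:**
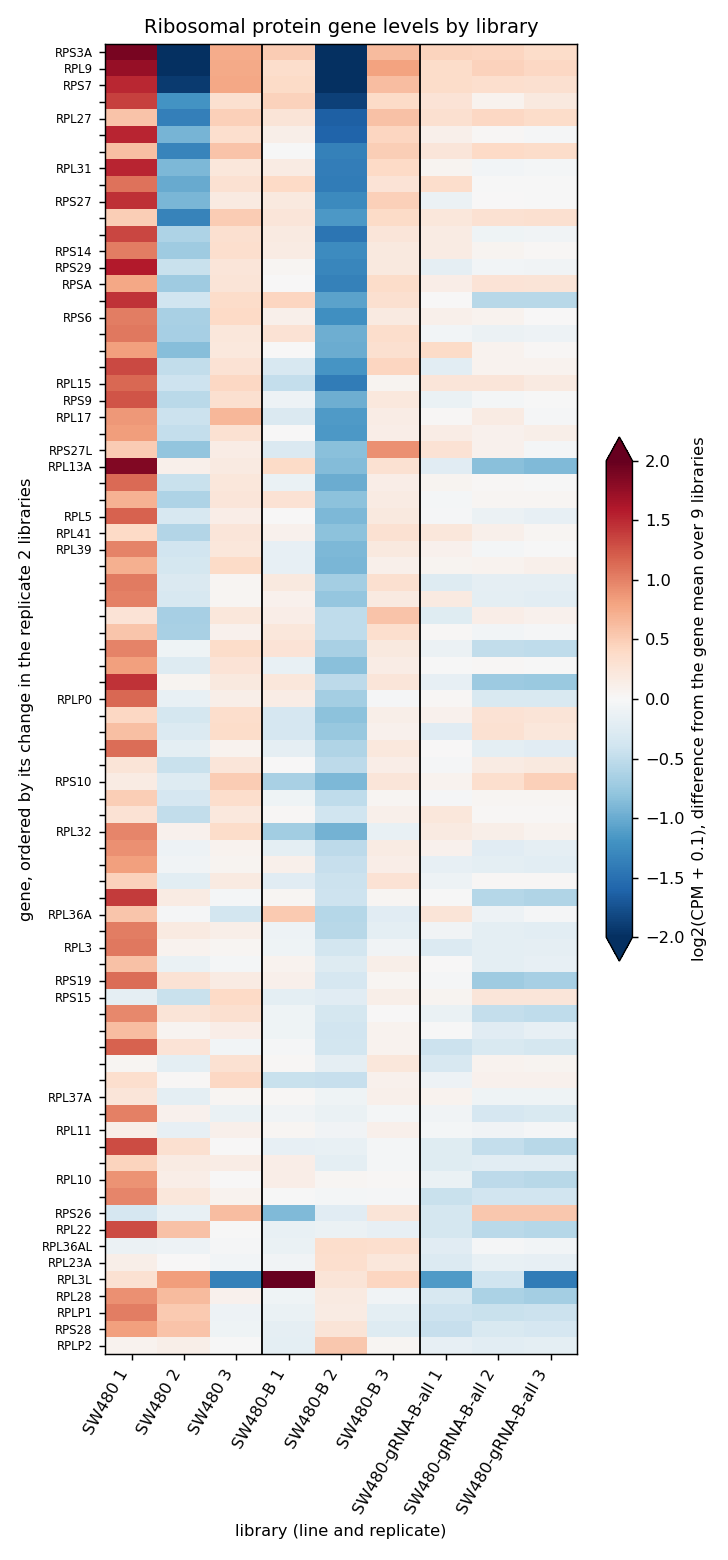
Level of each of 79 ribosomal protein genes (rows) in each of the 9 libraries (columns), as the difference of log2(CPM + 0.1) from the mean of that gene, in red where higher and in blue where lower, with labels for genes described in the text. Rows are ordered by the change in the replicate 2 libraries, and the blue block at the top in replicate 2 of SW480 and SW480-B contrasts with the almost uniform red of SW480 replicate 1.

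In replicate 1 of SW480 nearly all members were high. The median difference of members from replicate 3 of the same line was 0.73 on the log2 scale, with 72 of 79 members higher, while over all 16680 genes it was 0.03. RPL13A, a component of a complex that silences translation in inflammation, had the largest counts of all members there, at 5292 CPM against 1569 and 1665 CPM in the other SW480 libraries. RPLP0, the scaffold of the ribosomal stalk, was measured at 3254 CPM against 1329 and 1596 CPM. The other stalk proteins differed from each other, as RPLP1 reached 2009 CPM against 1428 and 931 CPM but RPLP2 was almost level, at 652, 675 and 618 CPM. RPL11, which together with RPL5 inhibits MDM2 when ribosome assembly fails, was level as well (645, 535 and 638 CPM). RPL5 was not, at 2019, 710 and 970 CPM. The snoRNA host genes of the TOP class, noncoding genes such as GAS5 and SNHG1 whose transcripts carry TOP tracts, were also highest in this library in 11 of 12 cases. Ribosome biogenesis genes, which encode nucleolar assembly factors, differed little there, with a median of 0.11 above their means over 9 libraries against 0.92 for members. For 17 elongation factor and TOP mRNA genes this median was 0.37. MYC was highest in the same library at 800.2 CPM, against 437 and 228 CPM in the other SW480 libraries. Its part in the member levels was not tested.

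Replicate 2 of SW480 and replicate 2 of SW480-B shared a gene-specific pattern. RPS3A, a small subunit protein near the mRNA exit, had 2443, 154 and 1094 CPM in replicates 1, 2 and 3 of SW480. In SW480-B it had 927, 86.6 and 1018 CPM, and in SW480-gRNA-B-all 892, 881 and 846 CPM. The gene was thus about as low in both of these libraries and level in the third line. RPL9, of the large subunit, had 1038, 72.6 and 521 CPM in SW480 and 395, 44.1 and 538 CPM in SW480-B. RPS7, which also binds MDM2, had 1802, 169 and 1088 CPM in SW480 and 827, 121 and 971 CPM in SW480-B. These 3 genes, named after their values were seen, were the lowest in both libraries, with differences of −3.49 to −2.88 on the log2 scale relative to the mean of replicates 1 and 3.

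Weaker reductions of the same kind were found for many other members. In all, 27 of 79 members (34.2%) were lower by more than 1 on the log2 scale in both libraries, which was the case for 264 of 16680 genes (1.58%). Among them were RPS27 (782, 150.4 and 319 CPM in SW480), RPS29, RPS14, RPSA and RPS6. RPS14 lies in the deleted region of a myelodysplastic syndrome, RPSA also serves as a laminin receptor precursor, and RPS6 is the substrate of S6 kinase. RPS14 had 1479, 443 and 919 CPM in SW480 and 816, 303 and 835 CPM in SW480-B. RPS6 had 2176, 686 and 1420 CPM in SW480 and 1155, 460 and 1216 CPM in SW480-B. RPSA had 1870, 669 and 1315 CPM in SW480 and 1104, 430 and 1420 CPM in SW480-B. Of the 27 genes, 17 encode small subunit proteins and 10 large subunit proteins. The median difference of replicate 2 was −1.08 (SW480) and −1.04 (SW480-B) for the small subunit, and −0.73 and −0.63 for the large subunit. Some lists with related products were low in these libraries as well. For 75 mitochondrial ribosomal protein genes the medians were −0.59 and −0.41, with 71 and 62 genes below 0. For 12 snoRNA host genes of the TOP class they were −0.84 and −0.70, with 11 below 0 in each library. Other lists were not low. For 17 elongation factor and TOP mRNA genes the medians were −0.07 and 0.04, with 11 and 7 genes below 0. The medians of 44 ribosome biogenesis genes were −0.02 and 0.16, and those of 33 initiation factor genes −0.07 and 0.11, against 0.05 and 0.04 over all genes tested.

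At the other end, RPLP2, RPS28, RPLP1 and RPL28 were at or above the mean of replicates 1 and 3 in both libraries. RPLP2 had 652, 675 and 618 CPM in SW480 and 542, 897 and 640 CPM in SW480-B. RPS28 had 467, 391 and 248 CPM in SW480 and 232, 317 and 221 CPM in SW480-B. Proteins needed in equal numbers thus had mRNA levels that diverged within a line. The ratio of RPS28 to RPS3A in CPM was 0.191, 2.54 and 0.227 in replicates 1, 2 and 3 of SW480, and 0.250, 3.66 and 0.217 in SW480-B. Across the 79 members the difference of replicate 2 correlated between SW480 and SW480-B (Pearson's r 0.891, Spearman's rho 0.926), against 0.322 and 0.280 across all genes tested. The genes are not independent replicates, and the points share their libraries.

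**Figure D3:**
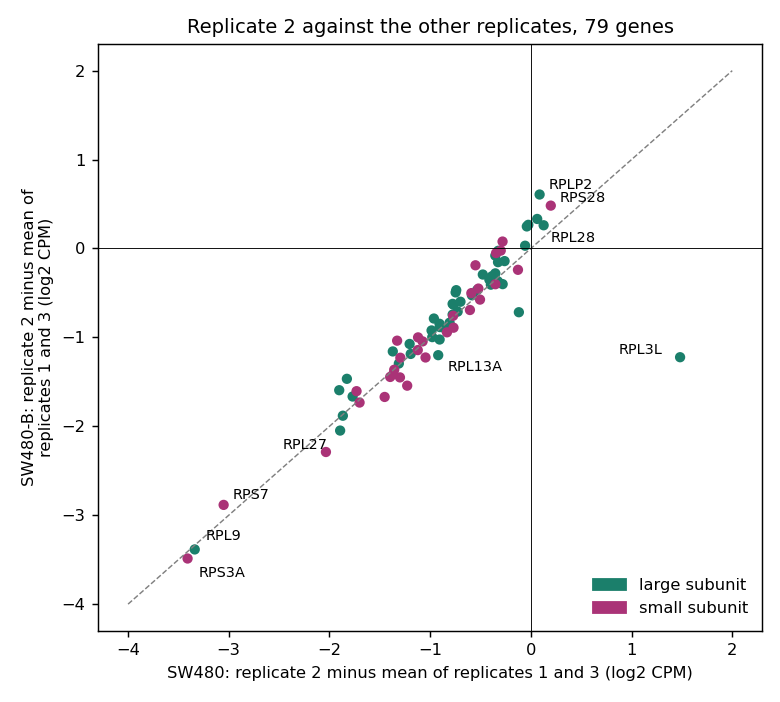
Difference of replicate 2 from the mean of replicates 1 and 3 in log2 CPM, in SW480 (horizontal axis) and in SW480-B (vertical axis), with 1 point for each of 79 ribosomal protein genes and a dashed line of equality. The points follow the line from RPS3A and RPL9, both below −3.3 on each axis, to RPLP2 and RPS28 above 0, and RPL3L, with few counts, lies apart.

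Sequence features of the divergent members were compared as a description. The 27 low members had a median GC content of the coding sequence of 49.3%, against 57.9% for the 4 members that were not low and 51.6% for all 79. The correlation between the difference of replicate 2 and GC content was 0.354 in SW480 and 0.311 in SW480-B (Pearson's r, n = 79). A TOP tract by the rule above was present in 16 of the 23 low members with a RefSeq start, and in 3 of the 4 members that were not low. RPL9 and RPS28, at opposite ends, are both annotated to start at A. The number of pseudogenes of a member hardly correlated with its difference (−0.117 and −0.095). Outside the members, the 146 protein-coding genes that were low in both libraries had a median coding length of 443 bases, against 1422 bases over the 13238 tested. Below 500 bases of coding sequence, 8.58% of 1060 other genes and 33.3% of 48 members were low in both. Between 500 and 1000 bases these shares were 1.59% of 2960 other genes and 39.3% of 28 members. Short genes outside the ribosome therefore shared the pattern in part, and at either length the portion was higher among members. The median 3′ bias of coverage stated in the deposited alignment metrics was 0.832 and 0.851 in these 2 libraries and 0.781 to 0.841 in the other 7. The part of these features in the pattern was not tested.

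In SW480-gRNA-B-all no member apart from RPL3L was lower or higher in replicate 2 or 3 by more than 2-fold relative to replicate 1, yet members on 19q differed together. Among the 8 members on this arm are RPL13A, RPL28, RPS9 and RPS19. RPL13A had 1251 CPM in replicate 1, and 824 and 799 CPM in replicates 2 and 3. RPS19, the gene most often mutated in Diamond-Blackfan anemia, had 870 CPM in replicate 1 and 540 and 553 CPM in the others. In all, 7 of the 8 genes were higher in replicate 1, by 0.34 to 0.67 on the log2 scale, and RPS9 was the exception at −0.10. Of 623 other tested genes on 19q, 507 were higher in replicate 1 too, with a median difference of 0.39, while the median of the 71 members elsewhere was 0.04. RPS26, on 12q, differed the most in the opposite direction, with 143 CPM in replicate 1 and 265 and 264 CPM in the others. RPL10, on Xq, resembled the 19q genes with 1286, 984 and 967 CPM, as did RPS12, on 6q, with 485, 328 and 323 CPM. RPL30, on 8q, and RPS18, on 6p, were also higher in replicate 1, by 0.38 and 0.353 on the log2 scale. Of the 71 members not on 19q, 39 were higher and 32 lower in replicate 1.

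**Figure D4:**
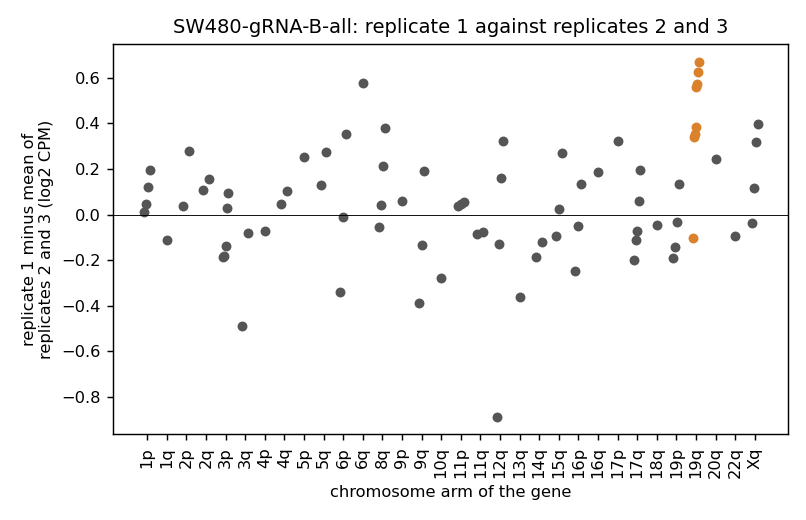
Replicate 1 of SW480-gRNA-B-all minus the mean of replicates 2 and 3 in log2 CPM, with 1 point for each of 79 ribosomal protein genes, placed by the chromosome arm of the gene. On 19q (orange), 7 of 8 genes lie above 0.3, while the genes on other arms scatter around a median of 0.04.

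To test whether the lines differed, each pair of lines was compared with the quasi-likelihood test of edgeR over all genes, and p-values were adjusted by the Benjamini-Hochberg method. Both BASP1 lines were compared with the same SW480 libraries. In SW480-gRNA-B-all against SW480, members were mostly on the lower side, but a single gene passed an adjusted p of 0.05. This was RPL28, a large subunit protein, which had 618, 496 and 480 CPM in SW480-gRNA-B-all and 1458, 1195 and 821 CPM in SW480. It fell by 1.13 on the log2 scale (SE 0.262, adjusted p = 0.0475 by edgeR), and the lines did not overlap. None of the 78 members tested passed in the upward direction, where 2.29% of all 16100 genes did, and 5.52% of all genes passed in the downward direction, against 1.28% of members. At an unadjusted p under 0.05 the count was 16 lower members and 0 higher members, that is 20.5% of members against 16.9% of all genes as lower, and 0 against 11.5% as higher. By DESeq2, 11 members were lower (14.1%, against 11.4% of all genes) and 0 higher. With the replicate number as a block, 4 members were lower by edgeR (5.13%, against 6.01% of all genes). A total of 67 members (85.9%) had a log2 fold change below 0, against 53.3% of all genes, and the median was −0.41 for members and −0.05 for all genes. The median was −0.37 with DESeq2 size factors and −0.38 with TMM factors computed without the members.

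Large differences in this comparison that did not pass the threshold were measured for RPL13A and RPL22. For RPL13A the means ± SD were 958 ± 254 CPM in SW480-gRNA-B-all and 2842 ± 2123 CPM in SW480 (n = 3 each, log2 fold change −1.57, SE 0.522, adjusted p = 0.106 by edgeR). The SD in SW480 was carried by replicate 1. RPL22, an RNA-binding protein of the large subunit, had 270.2, 238 and 234 CPM against 858, 522 and 344 CPM (log2 fold change −1.22, SE 0.332, adjusted p = 0.0679 by edgeR). In RPL13A and RPL22 the libraries of the lines did not overlap, which held for 20 of 78 members in the downward direction (25.6%) and 19.9% of all genes, and in the upward direction for 0 members and 18% of all genes. The largest positive values were small, 0.23 for RPL27, 0.21 for RPS15 and 0.19 for RPS26, with adjusted p of 0.767, 0.593 and 0.740 by edgeR and overlapping libraries. For the 8 members on 19q the median log2 fold change was −1.02, for the 70 others −0.35, and for 602 other genes on 19q −0.42.

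The member median depended on 1 parental library. Without replicate 1 of SW480 it was −0.001, and without replicate 2 of SW480 it was −0.63. RPL28 was no longer past the threshold without replicate 1 or replicate 2 of SW480 or without any single SW480-gRNA-B-all library, and not with offsets for the median of each chromosome arm either (log2 fold change −0.68). Without replicate 3 of SW480, 8 of 79 members were lower (10.1%, against 12.8% of all genes).

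**Figure D5:**
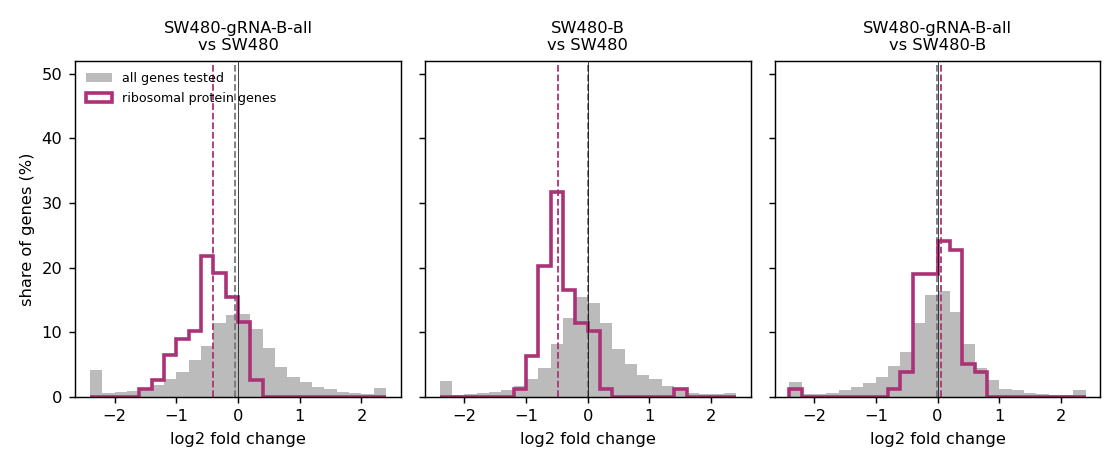
Distribution of log2 fold changes (bins of 0.2, values beyond the axis placed in the outer bins) as a share of genes (%) for all genes tested (grey) and for ribosomal protein genes (line), with dashed lines at the medians, in the 3 comparisons of lines. Members lie to the left of all genes in both comparisons with SW480 (medians −0.41 and −0.48) and around 0 in the comparison of both BASP1 lines (median 0.06).

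In SW480-B against SW480, no member passed the threshold by edgeR, of 79 tested. Of all 16106 genes, 0.0931% passed as higher and 1.25% as lower. With the replicate number as a block no member passed either, where 1.99% of all genes did. At an unadjusted p under 0.05, 3 members were lower (3.8%, against 7.76% of all genes) and 0 higher (against 8.07%), and DESeq2 called 1 member, RPL32, as lower (1.27%, against 4.07% of all genes). RPL32, of the large subunit, had 298, 251 and 440 CPM in SW480-B and 953, 515 and 626 CPM in SW480, without overlap (log2 fold change −1.04, SE 0.335, adjusted p = 0.199 by edgeR). RPL15 (log2 fold change −0.97) and RPS29 (−0.89) followed, with overlapping libraries and adjusted p of 0.377 and 0.479 by edgeR. Upward values were found for RPL3L (1.44), RPL36AL (0.31) and RPL23A (0.18), none past the threshold (adjusted p of 0.477, 0.520 and 0.754 by edgeR). The libraries of the lines did not overlap for 9 members in the downward direction (11.4%) and for 11.8% of all genes, and for 0 members and 10.6% of all genes in the upward direction. The median of members was −0.48, that of all genes −0.004, and 69 members (87.3%) were below 0, against 50.3% of all genes. Without replicate 1 of SW480 the median of members was −0.06 and without replicate 2 of SW480-B it was −0.25, whereas it was −0.50 without the replicate 2 libraries of both lines, a setting chosen after seeing the data.

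The lines with BASP1 were also compared with each other. In SW480-gRNA-B-all against SW480-B none of 79 members passed by edgeR, where 3.03% of 15846 genes passed as higher and 5.73% as lower. At an unadjusted p under 0.05, 1 member was higher (1.27%, against 10.6% of all genes) and 3 were lower (3.8%, against 13.8%). DESeq2 called RPL32 as higher (1.27% of members, against 5.83% of all genes) and RPL28 and RPL3L as lower (2.53%, against 9.01%). RPL32 had 551, 523 and 509 CPM in SW480-gRNA-B-all, above all SW480-B libraries (log2 fold change 0.68, SE 0.231, adjusted p = 0.115 by edgeR). RPL15 (0.70) and RPS10 (0.67) were the other largest positive values. RPL3L (−2.97, adjusted p = 0.0659 by edgeR), RPL13A (−0.66) and RPL28 (−0.55) had the largest negative values. For RPL15, RPS10, RPL13A and RPL28 the adjusted p lay between 0.116 and 0.290 by edgeR. No overlap of libraries was found for 2 members in the upward direction (2.53%, against 15% of all genes) and 10 in the downward direction (12.7%, against 15.4%). The member median was 0.06, with 35 members (44.3%) and 50.3% of all genes below 0, and it was −0.18 without replicate 2 of SW480-B and 0.27 without replicate 3 of SW480-B, so its direction depended on 1 library.

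Genes with related roles were examined alongside, without an adjustment for chromosome arm. On 19q, 41 of 602 other genes were called lower and 7 higher in SW480-gRNA-B-all against SW480 (median log2 fold change −0.42). Among the 16100 genes of that comparison, 888 (5.52%) were called lower and 368 (2.29%) higher. Of all genes, 1256 passed in that comparison, but only 97 once the near-identical CRISPR libraries were merged. Against SW480-B these counts were 1388 and 447, with 5.73% of all genes called lower and 3.03% higher before merging. Calls in the lists below are to be read beside these shares, as no list was tested as a set. Whether the calls in these lists depend on chromosome arm or on that pair is not reported here. Of 17 elongation factor and TOP mRNA genes tested, EIF3K, a subunit of initiation factor eIF3, fell in SW480-gRNA-B-all against SW480 (by 0.62 on the log2 scale, adjusted p = 0.0420 by edgeR). EIF4B, which assists the helicase eIF4A, fell in SW480-gRNA-B-all against SW480-B by 0.72 (adjusted p = 0.0343 by edgeR), and none rose. The medians of this list were −0.28 and −0.15, against −0.05 and −0.004 over all genes. Of 44 ribosome biogenesis genes, FBL, the methyltransferase of box C/D snoRNPs, fell by 0.94 and HEATR1 by 0.73 in SW480-gRNA-B-all against SW480 (adjusted p = 0.0279 and 0.0488 by edgeR), and RRP1B fell against SW480-B by 0.67 (adjusted p = 0.0370 by edgeR). Of 12 ribosome assembly chaperones, TSR2, the escort of RPS26, fell against SW480 by 0.71 (adjusted p = 0.0357 by edgeR), and the importin IPO5 fell against SW480-B by 0.86 (adjusted p = 0.0207 by edgeR).

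Of 33 initiation factor genes tested, EIF2S3 fell against both lines in SW480-gRNA-B-all, by 1.53 and 1.22 (adjusted p = 0.0171 and 0.00850 by edgeR), and EIF1AX fell against SW480 by 1.21 (adjusted p = 0.0278 by edgeR). Both take part in selecting the start codon. Over all genes, 5.52% were called lower against SW480 and 5.73% against SW480-B. Of 12 snoRNA host genes of the TOP class, EPB41L4A-AS1 fell in SW480-gRNA-B-all against SW480-B by 1.67 (adjusted p = 0.0136 by edgeR). The medians of the list were −0.66 and −0.41 in SW480-gRNA-B-all and SW480-B against SW480, and −0.05 and −0.004 over all genes. The 6 related genes outside the rule, among them FAU, RACK1 and RPL22L1, had no call in any comparison. Of 75 mitochondrial ribosomal protein genes tested, MRPS35 and MRPL4 fell in SW480-gRNA-B-all against SW480 (by 0.61 and 0.53), and against SW480-B MRPS25 rose by 1.10 and MRPS6 fell by 1.80 (adjusted p = 0.0418 and 0.0108 by edgeR). The median of this list was 0.05 against SW480, where that of cytosolic members was −0.41 and that of all genes −0.05. In SW480-B against SW480 none of these lists held a called gene by edgeR.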

How the data were processed

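Poly(A)-selected RNA of SW480, of SW480-B and of SW480-gRNA-B-all (3 libraries each) was sequenced with strand information. The authors aligned reads to GRCh37, with STAR named in the headers of the alignment metrics, and deposited raw counts per gene. The counting program is not given in the sources used here. The other deposited columns, alignment metrics from Picard, hold shares of bases and coverage biases. Symbols were matched for 55665 of 63677 identifiers. The closing lines of each count file, which name no gene, were left out: 5.23 to 9.93% of reads had no feature and 3.09 to 3.44% were ambiguous. For each pair of lines, genes were filtered with filterByExpr and tested with glmQLFTest in edgeR 4.0.16 (R 4.3.3) with TMM scaling and Benjamini-Hochberg adjustment over all genes tested (threshold 0.05). Log2 CPM used a prior count of 2. Deviations within lines used the 16680 genes passing the filter over 9 libraries, among them 79 members. RPL10L, RPL39L and 1 other member had no counts, and RPL3L was tested in 2 comparisons. Scripts were tested on simulated counts. Alternatives included DESeq2 1.42.0, other scaling and filters, offsets for GC content and length or chromosome arm, and leaving out each replicate.

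Members and lists were chosen with earlier results of these data known. Named were, for each comparison, the 3 largest changes in each direction among members past the threshold, or of all members where fewer passed, the 4 highest and 4 lowest per coding kilobase, paralog pairs, the stalk proteins, and members with textbook roles. Some genes that this rule names are not reported here. Same-numbered libraries of SW480 and SW480-B deviated together (correlation over all genes 0.290, 0.322 and 0.393, over members 0.699, 0.891 and 0.734). These numbers may thus pair the samples, but neither the sample titles nor the study states a pairing. The main tests treated the libraries as unpaired, and the replicate block was an alternative. For SW480-gRNA-B-all such joint deviation did not hold over all genes (replicate 2: −0.037 with SW480 and −0.087 with SW480-B). Over members alone the correlations with SW480 were 0.397, 0.186 and 0.593, and those with SW480-B 0.218, −0.023 and 0.302.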

Additional observations from a re-analysis of the deposited data

Results flagged for a closer look

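In the 2 lines with BASP1, RPL3L, the muscle paralog of RPL3, lay on opposite sides of the mean log2 level of SW480. Each SW480-gRNA-B-all library (0.102, 0.234 and 0.0668 CPM) lay below that mean level, and each SW480-B library (2.32, 0.428 and 0.495 CPM) above it. The SW480 libraries themselves (0.448, 0.689 and 0.0727 CPM) overlapped those of both lines. The lines with BASP1 differed by −2.19 on the log2 scale on average. This opposition was not tested as such, and it rests on 133 counts over 9 libraries.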

How the results depend on the processing

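In SW480-gRNA-B-all against SW480 the 1 member called by edgeR became 0 with DESeq2 size factors in edgeR, with chromosome arm offsets or with the near-identical libraries 2 and 3 of the CRISPR line summed, 2 without the filter, 4 in a fit of all 9 libraries, 4 with the replicate block, 7 with the block and GC and length offsets, 11 with DESeq2, 6 at an adjusted p under 0.1, and 0 to 8 when a library was left out. In SW480-B against SW480 the 0 members became 1 with DESeq2 and stayed at 0 with the replicate block and with each library left out. In SW480-gRNA-B-all against SW480-B the 0 members became 1 without the filter, with the replicate block with or without offsets and at an adjusted p under 0.1, 3 with DESeq2, and 0 to 3 when a library was left out. Every further call was on the lower side except RPL32, and RPS10 without replicate 3 of SW480-B. The block changed no member call in SW480-B against SW480, where same-numbered libraries deviated together. Whether those of SW480-gRNA-B-all and SW480 did so depends on the genes used (correlations 0.291, −0.037 and 0.266 over all genes, 0.397, 0.186 and 0.593 over members). With SW480-B the correlation of replicate 2 was below 0 over both (0.235, −0.087 and 0.241, and 0.218, −0.023 and 0.302). Leaving out a library moved the member medians from −0.63 to −0.001, from −0.68 to −0.06, and from −0.18 to 0.27 in the 3 comparisons in order. It moved the share of counts from 5.19 to 7.84% in SW480, from 4.52 to 5.67% in SW480-B and from 4.97 to 5.18% in SW480-gRNA-B-all.

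Counts over all genes moved as well: 1256 in SW480-gRNA-B-all against SW480 (1930 with 9 libraries, 3127 with DESeq2, 2742 at 0.1, 97 with libraries summed, 8 to 3519 with a library left out), 216 in SW480-B against SW480 (738 without the filter, 143 with a filter of 1 CPM, 488 with 9 libraries, 1063 with DESeq2, 416 at 0.1, 0 to 925 with a library left out), and 1388 in SW480-gRNA-B-all against SW480-B (761 with 9 libraries, 2352 with DESeq2, 2254 at 0.1, 447 with libraries summed, 421 to 2305 with a library left out). The causes of these changes were not tested. Of 1715 values of named genes under alternatives, 1660 kept their side of the threshold, 35 passed it newly and 20 no longer did. No called value changed sign, and 113 values called in neither setting did.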
